A study of Mus musculus with 16 samples.

Results

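The F1 effect shared by liver and fat is described here: the difference between the offspring of obese fathers (F1) and the offspring of control fathers (CT), averaged over liver and eWAT, the label for a white adipose tissue. All 16 of the 16 samples entered it, 4 in each of the 4 groups. The groups were liver F1, liver CT, eWAT F1 and eWAT CT, all from male C57BL/6J mice, an inbred laboratory strain, aged 14 weeks. Every mother was a control female. F1 fathers had been put on a high-fat diet with 45% lipid at 8 weeks of age and kept on it for 12 weeks before mating, while CT fathers ate chow. The sources used here give neither the number of fathers and litters nor the hour of sampling. The p-values therefore rest on the spread between these 16 samples, part of which may be technical. The labels do not say whether samples of the same number in liver and eWAT came from the same mouse.

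Liver and visceral fat exchange fuel and signals. Liver makes plasma proteins, among them complement and acute phase proteins, whose transcription inflammatory cytokines raise, and fat stores triglyceride and secretes hormones. Both tissues also read signals that reach the whole body: glucocorticoids from the adrenal gland, feeding, and the circadian clock, a loop in which BMAL1 and CLOCK activate genes such as Nr1d1, Dbp and Per3 and are in turn held back by some of their products. A gene can therefore differ in the same direction in both tissues through its own regulation in each, and array values of whole tissue cannot tell fewer cells of a type from less RNA per cell.

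Expression was read on Affymetrix mouse arrays as log2 values, so a difference of 1 is a doubling. Of 22206 probe sets, 19572 had a gene symbol, and 13335 genes were kept as above the 25th percentile of brightness in liver and in eWAT alike. Tissue markers followed the labels: the median of 24 hepatocyte markers lay at 19.79 to 19.84 in all 8 livers, near the top of the scale, and the median of 12 adipocyte markers at 17.25 to 17.64 in all 8 eWAT samples, against 4.2 to 5.0 in the livers. Some samples also held RNA of other tissues. Hepatocyte markers in eWAT had medians of 11.07, 14.18, 10.86 and 15.17 in F1 1 to 4, against 8.09, 7.04, 13.44 and 13.19 in CT 1 to 4. The F1 mean was 12.82 and the CT mean 10.44, a difference of 2.38 (exact two-sided permutation test, p = 0.286, the smallest possible p being 0.0286). With so few samples this test cannot exclude a difference between the groups. The gap is present in these samples in either case, so it bears on the eWAT comparison. Liver F1 4 had a median of 10.62 over 20 exocrine pancreas markers, against 3.95 to 4.49 in the other livers, and eWAT F1 1 alone had high seminal vesicle genes, with Svs2 at 16.22 against 2.47 to 4.88 in the other eWAT samples.

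With limma, 30 of the 13335 kept genes were called on average at an adjusted p under 0.05 (0.225%), 20 higher in F1 (0.150%) and 10 lower (0.0750%). Of these 30, 27 had the same sign in both tissues and 17 also had an unadjusted p under 0.05 in each tissue, 14 of which were not liver-enriched. Liver-enriched means at least 8-fold higher in liver CT than in eWAT CT, which held for 708 of the kept genes. A fit with tissue and father as additive terms, whose residual spread takes in any tissue difference, called only Fgl1 (adjusted p = 0.00858) and C6 (adjusted p = 0.0260). Without eWAT CT 1 and CT 2, the eWAT samples with the lowest hepatocyte markers, 11 genes were called on average.

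No gene was called by the stricter test that asks for an effect in each tissue separately (0 of 13335, 0.00%, limma with Benjamini-Hochberg adjustment of the larger single-tissue p). At an unadjusted p under 0.05 in each tissue, 91 genes went in the same direction (0.682%), 61 higher in F1 (0.457%) and 30 lower (0.225%), and 55 went in opposite directions (0.412%). F1 and CT values did not overlap in either tissue for 26 genes with the same direction (0.195%) and for 26 with opposite directions (0.195%). Over all kept genes, 50.6% had the same sign in liver and eWAT, and the differences in both tissues correlated at 0.06 (Pearson) and 0.03 (Spearman) across genes, which are not independent of each other. In single tissues, 21 genes were called in liver (0.157%) and 0 in eWAT (0.00%), where 1353 had an unadjusted p under 0.05 (10.1%). The called genes below were picked by these same contrasts, so their single-tissue values are a description.

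**Figure D1:**
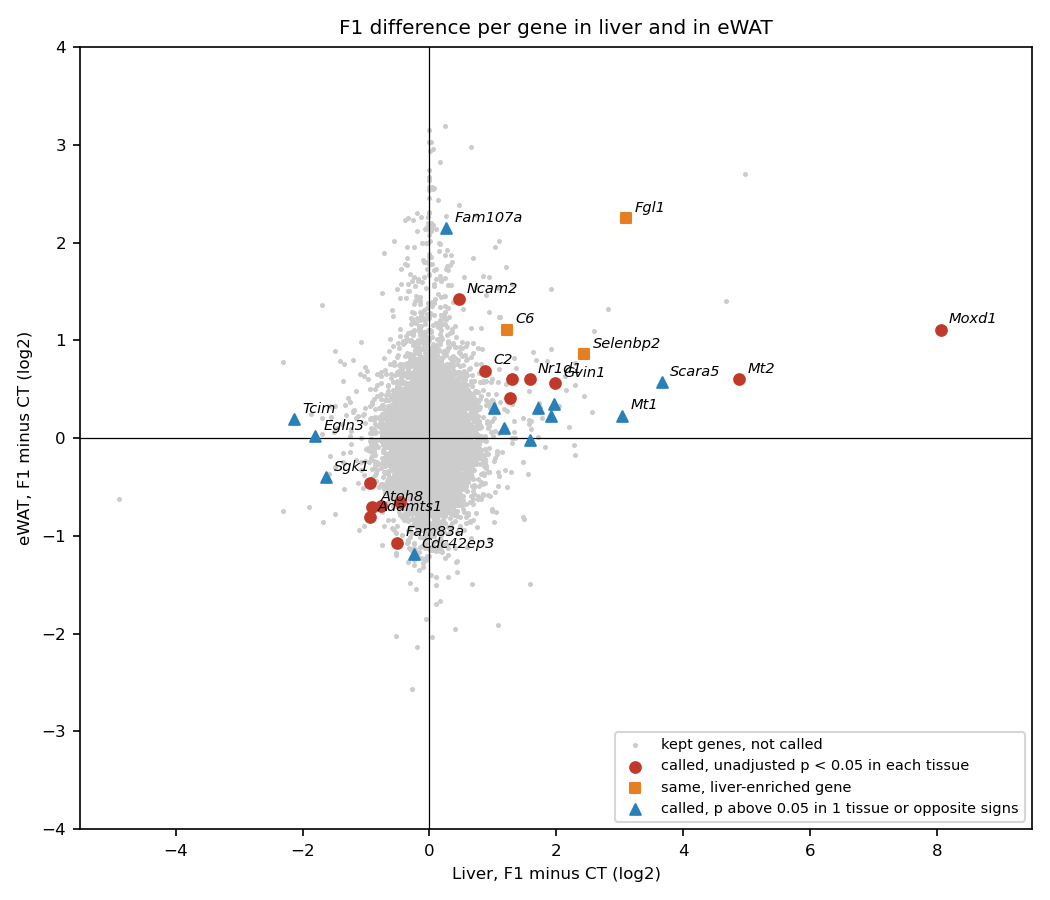
F1 minus CT difference in liver (x axis, log2) and in eWAT (y axis, log2) for each of the 13335 kept genes. Grey points are genes not called; red circles and orange squares mark the 17 called genes with an unadjusted p under 0.05 in each tissue, the squares being liver-enriched, and blue triangles mark the other 13 called genes. The grey points form a cross along the axes, and Moxd1 and Mt2 lie far to the right with small eWAT differences.

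Among the called genes that were higher in F1 were components of innate defence. C2, the complement protease of the classical and lectin pathways, had 10.14, 9.42, 10.08 and 9.41 in liver F1 1 to 4, against 8.86, 8.87, 8.86 and 8.94 in liver CT 1 to 4. In eWAT it had 11.75, 11.31, 11.40 and 11.42 in F1, against 11.13, 10.62, 10.77 and 10.61 in CT. Every F1 sample lay above every CT sample in both tissues. C2 rose by 0.78 ± 0.14 (SE) on average (adjusted p = 0.0191), and the liver and eWAT differences were 0.88 and 0.69.

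Gvin1, a very large GTPase that interferon induces, had 10.64, 10.47, 11.11 and 9.53 in liver F1, against 8.71, 8.28, 8.00 and 8.84 in liver CT. In fat the values were 12.92, 12.18, 12.23 and 12.39 in F1, against 11.75, 12.01, 11.70 and 12.02 in CT, again with no overlap in either tissue. Gvin1 rose by 1.27 ± 0.20 on average (adjusted p = 0.00924), with differences of 1.98 in liver and 0.56 in eWAT. It has near copies in the mouse genome, so its probes may also read these. Lrg1, a secreted glycoprotein that is made in acute phase responses, had 13.11, 13.68, 14.39 and 14.18 in liver F1, against 12.55, 12.26, 12.59 and 12.71 in liver CT. Its eWAT values were 13.26, 13.56, 13.34 and 13.43 in F1, against 13.27, 12.20, 13.02 and 12.72 in CT, where CT 1 overlapped with F1. Lrg1 rose by 0.95 ± 0.18 (adjusted p = 0.0362), and it kept its call in 3 of the 16 fits that left out a sample.

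Nr1d1, which encodes the clock repressor REV-ERB alpha, had 12.87, 13.96, 13.90 and 14.20 in liver F1, against 11.69, 12.27, 12.14 and 12.53 in liver CT. The eWAT samples had 14.61, 13.89, 14.89 and 13.99 in F1, against 13.42, 13.67, 14.04 and 13.87 in CT. The groups were apart in liver and overlapped in eWAT. Nr1d1 rose by 1.09 ± 0.20 on average (adjusted p = 0.0360), and by leaving out 1 sample at a time it kept its call in 7 of 16 fits.

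Ncam2, a neural cell adhesion molecule, had 8.24, 7.64, 7.91 and 7.62 in liver F1, against 7.22, 7.57, 7.49 and 7.28 in liver CT. In eWAT it had 7.89, 7.52, 7.34 and 6.72 in F1, against 6.23, 5.81, 5.45 and 6.30 in CT. Both tissues showed no overlap, and the difference was 1.42 in eWAT and 0.46 in liver (average 0.94 ± 0.17, adjusted p = 0.0296). The call held in 7 of the 16 fits without a sample. Atp11a, a flippase that moves phospholipids to the inner leaflet of the membrane, had 8.88, 9.74, 8.80 and 9.70 in liver F1, against 7.92, 8.29, 7.68 and 8.14 in liver CT. Its eWAT values were 11.80, 11.92, 11.52 and 11.75 in F1, against 11.43, 11.08, 11.58 and 11.28 in CT, with F1 3 inside the CT range. Atp11a rose by 0.84 ± 0.16 (adjusted p = 0.0360), kept its call in 5 of 16 fits without a sample, and had an adjusted p of 0.0650 with the hepatocyte markers as a covariate.

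Moxd1, a relative of the copper enzyme dopamine beta-hydroxylase, had 13.43, 14.92, 14.46 and 13.35 in liver F1, against 6.97, 6.31, 4.96 and 5.69 in liver CT. In fat the values were 4.78, 6.97, 5.39 and 5.92 in F1, against 4.81, 4.56, 4.62 and 4.62 in CT, where F1 1 lay within the CT range. Its average difference was 4.59 ± 0.33 (adjusted p = 1.48e-06), made up of 8.06 in liver and 1.11 in eWAT. The difference between the tissues was itself called (6.95, adjusted p = 9.83e-05). From the hepatocyte markers, liver RNA could account for 95.3% to 100% of the Moxd1 value of each eWAT F1 sample, by a rough estimate described below.

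Mt2, which encodes a small metal-binding protein, had 11.73, 12.17, 12.26 and 10.71 in liver F1, against 6.28, 6.77, 6.43 and 7.88 in liver CT. In eWAT, where it was already bright, it had 14.42, 14.37, 14.49 and 15.26 in F1, against 14.40, 13.48, 14.13 and 14.12 in CT. F1 2 lay below CT 1, so the eWAT groups overlapped. Its average rise was 2.74 ± 0.26 (adjusted p = 4.92e-05), with 4.88 in liver and 0.60 in eWAT and a called tissue difference of 4.28 (adjusted p = 0.00195).

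Mt1, the neighbouring metallothionein gene, is a near copy of Mt2, so the probes of each may read both. It had 12.41, 11.76, 13.23 and 11.09 in liver F1, against 8.63, 10.12, 8.20 and 9.39 in liver CT. The eWAT samples had 15.24, 15.07, 15.42 and 15.22 in F1, against 15.11, 14.93, 14.94 and 15.04 in CT, where F1 2 overlapped with CT. Mt1 rose by 1.64 ± 0.28 on average (adjusted p = 0.0178). Of the 8 kept genes of metal handling, 2 were called, both metallothioneins. The zinc importers Slc39a4 and Slc39a14 were not called, with average differences of 0.68 and 0.34 (adjusted p = 0.326 and 0.578).

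The metallothionein promoters are shown because metals act on these genes through metal response elements, whose core is usually written TGCACNC or TGCGCNC. The sequences are the 250 bases before the gene's start from RefSeq on GRCm38.p6, read on the gene's own strand, and capitals mark every match to that core on either strand. The Mt2 window lies at chr8:94172368-94172617 on the plus strand and holds 3 matches, and the Mt1 window at chr8:94178839-94179088 on the plus strand holds 1.
Mt2: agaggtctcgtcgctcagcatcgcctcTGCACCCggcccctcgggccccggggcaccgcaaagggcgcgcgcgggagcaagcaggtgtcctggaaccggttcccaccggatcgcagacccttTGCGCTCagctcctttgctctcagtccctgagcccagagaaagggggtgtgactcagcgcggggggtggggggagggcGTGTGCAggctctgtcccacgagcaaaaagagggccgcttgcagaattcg
Mt1: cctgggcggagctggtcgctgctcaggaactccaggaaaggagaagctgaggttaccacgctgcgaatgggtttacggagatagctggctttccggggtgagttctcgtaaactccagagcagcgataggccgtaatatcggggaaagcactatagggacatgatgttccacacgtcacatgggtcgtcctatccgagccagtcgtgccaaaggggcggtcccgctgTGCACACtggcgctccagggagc
Such a match stood in 21.4% of all 32851 promoter windows of this length and in 39.4% of the 33 windows of the 23 called genes with an entry. In all, 14 patterns were searched, among them a looser form of this core, TGCNCNC, which stood in 44.4% of all windows and in 75.8% of those of called genes. The receptor site core ACANNNTGT stood in 5.84% and 21.2%, and the STAT sites TTCNNNGAA in 7.02% and 12.1% and TTCCNGGAA in 0.913% and 6.06%. The REV-ERB and ROR motif AGGTCA stood in 14% and 12.1%, TTGCNNAA in 9.56% and 18.2%, TGACGT in 6.47% and 9.09%, TGACGTCA in 1.55% and 3.03%, and TTGCGCAA in 0.164% and 0%. Several called windows belong to 1 gene, so they are not independent. The patterns and genes were chosen with the array values known, and a match is not evidence that a factor binds there.

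Of the genes that fell, Adamts1, a secreted metalloprotease that cuts proteoglycans, had 7.38, 7.26, 7.52 and 7.37 in liver F1, against 8.18, 8.44, 9.01 and 7.64 in liver CT. In eWAT it had 10.87, 10.68, 10.43 and 11.10 in F1, against 11.67, 11.85, 11.47 and 11.33 in CT. Every F1 sample lay below every CT sample in both tissues. Adamts1 fell by 0.87 on average (SE 0.17, adjusted p = 0.0362), with nearly equal differences of -0.94 in liver and -0.81 in eWAT.

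Commd7, a COMM domain protein of a family that takes part in endosomal sorting, had 9.24, 9.87, 9.33 and 9.34 in liver F1, against 10.45, 10, 10.10 and 10.30 in liver CT. In fat the values were 11.26, 11.32, 10.95 and 10.51 in F1, against 11.65, 11.56, 11.72 and 11.92 in CT. It too was apart in both tissues, with differences of -0.77 in liver and -0.70 in eWAT (average -0.74 ± 0.14, adjusted p = 0.0362). Osbpl8, which exchanges lipids between the endoplasmic reticulum and the plasma membrane, had 10.71, 10.85, 10.66 and 10.76 in liver F1, against 11.65, 11.55, 11.60 and 11.95 in liver CT. Its eWAT values were 10.45, 10.81, 11.04 and 11.12 in F1, against 11.37, 11.16, 11.22 and 11.50 in CT. Osbpl8 was apart in both tissues and fell by 0.70 on average (SE 0.12, adjusted p = 0.0156), a call kept in 16 of 16 fits without a sample.

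Atoh8, a transcription factor of the basic helix-loop-helix family, had 7.10, 7.16, 7.23 and 7.01 in liver F1, against 7.89, 8.01, 8.21 and 8.00 in liver CT. The eWAT samples had 5.92, 6.86, 7.03 and 7.17 in F1, against 7.13, 7.33, 7.63 and 7.74 in CT, where F1 4 overlapped with CT 1. It fell by 0.81 on average (SE 0.16, adjusted p = 0.0487). The ion transport kinase Wnk2 was dim, with means of 4.62 ± 0.09 (SD) in liver F1 and 5.08 ± 0.20 in liver CT, and of 4.82 ± 0.12 in eWAT F1 and 5.47 ± 0.19 in eWAT CT (n = 4 each). It was apart in both tissues and fell by 0.56 on average (SE 0.11, adjusted p = 0.0362), and its probe set carries an identifier that marks it as unmapped. Fam83a, read as bright only in fat, had 8.99 ± 0.25 in eWAT F1 and 10.05 ± 0.43 in eWAT CT (SD, n = 4 each). In liver it was dim, with 4.22, 4.78, 4.21 and 4.76 in F1, against 5.22, 5.10, 4.92 and 4.76 in CT. Fam83a fell by 0.79 (SE 0.16, adjusted p = 0.0487). Apart from Osbpl8, each of these lower genes kept its call in no more than 3 of the 16 fits without a sample.

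**Figure D2:**
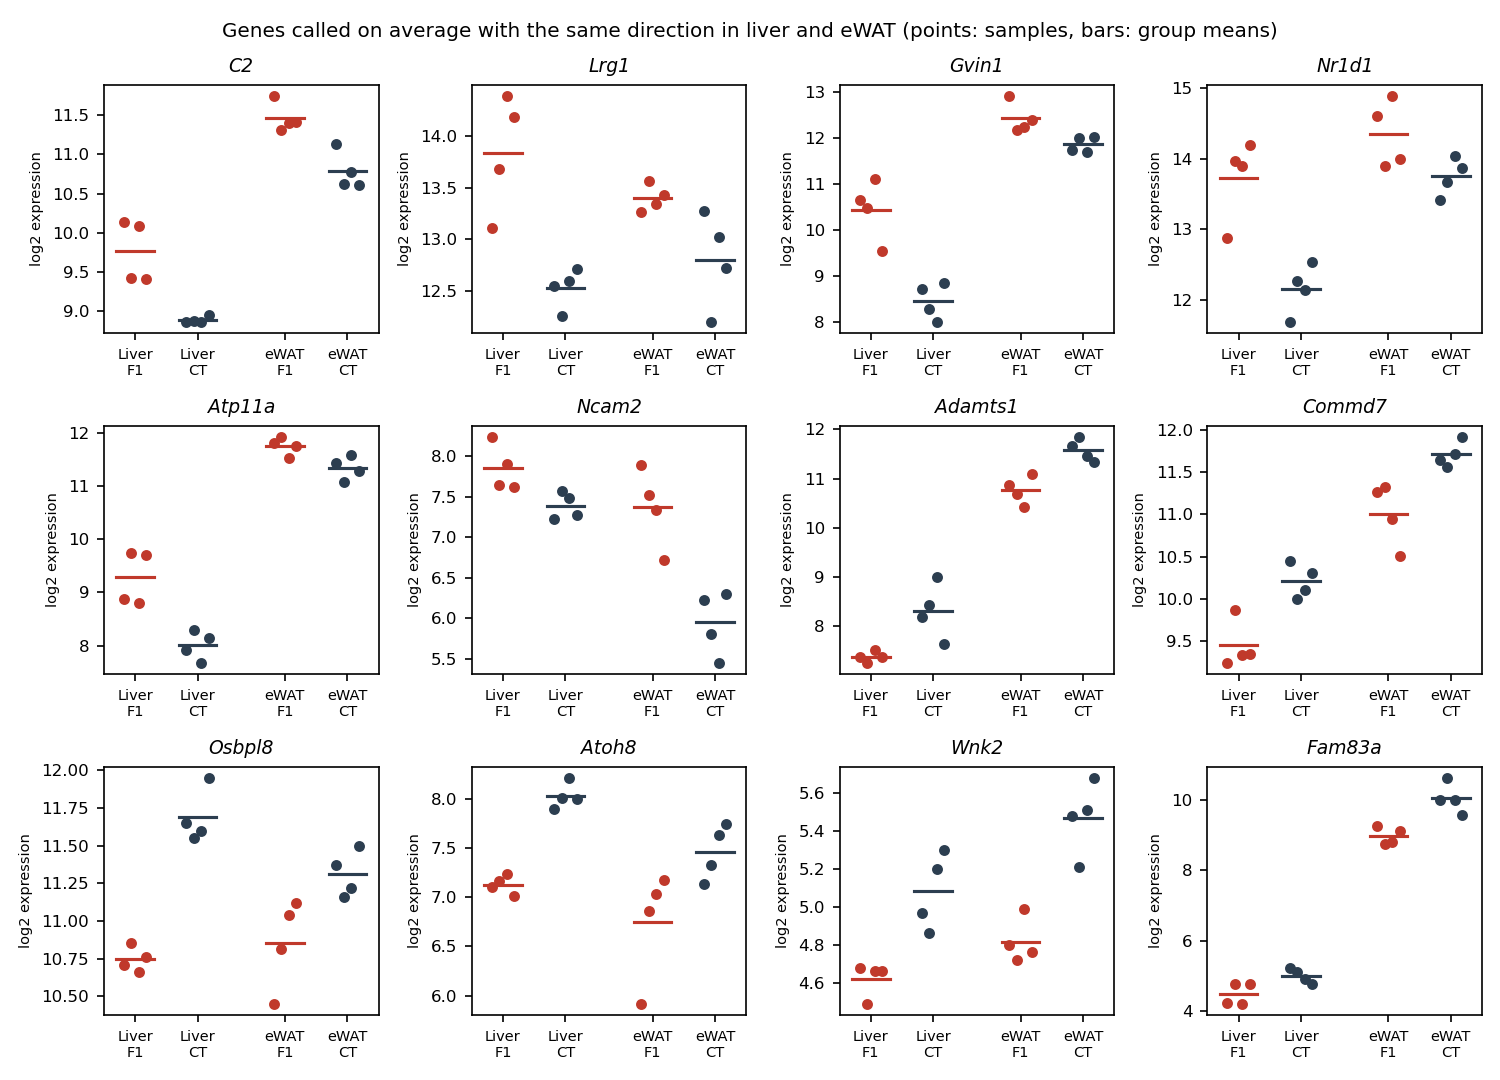
Log2 expression of 12 of the 14 called genes that were not liver-enriched and had an unadjusted p under 0.05 in each tissue, without Moxd1 and Mt2. Points are samples (red F1, dark CT), bars are means of 4 samples, and each panel has its own y axis, which does not start at 0. C2, Gvin1, Ncam2, Adamts1, Commd7, Osbpl8 and Wnk2 have no overlap between F1 and CT in either tissue.

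Most of the 91 genes with an unadjusted p under 0.05 in each tissue and the same sign did not pass the adjusted test, and 10 of those that were not liver-enriched are given here, taken by smallest p until 12 genes were named in each direction. The values on the F1 side were higher for the membrane protein Mmd2 (average 1.18 ± 0.24, adjusted p = 0.0524), Txlng (0.60 ± 0.13, adjusted p = 0.0668), the retinoic acid hydroxylase Cyp26b1 (1.84 ± 0.40, adjusted p = 0.0761) and the iron-siderophore binding protein Lcn2 (3.04 ± 0.66, adjusted p = 0.0805). Lcn2 was uneven within F1: liver F1 3 and 4 had 11.75 and 12.62, while F1 1 and 2 had 7.68 and 7.33, against 4.71 to 5.58 in liver CT. On the other side stood the kinase Sik1 (-1.27 ± 0.26, adjusted p = 0.0562), the matrix protein Emilin2 (-0.86 ± 0.18, adjusted p = 0.0701), the growth factor Hgf (-0.49 ± 0.12, adjusted p = 0.118), and Vasp, Mrgbp and Septin9 (adjusted p = 0.123 for each). Txlng, Vasp and Mrgbp had no overlap between F1 and CT in either tissue. Emilin2 was dim in liver, with means of 3.97 in F1 and 4.48 in CT, where the 25th percentile lay at 3.90 to 3.93. Mmd2 was dim in eWAT CT, with a mean of 3.67, where the 25th percentile lay at 3.49 to 3.59.

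Liver-enriched genes need separate reading, because liver RNA in an eWAT sample adds to their value there. Fgl1, a fibrinogen-like protein that hepatocytes secrete, had 17.07, 16.43, 16.93 and 16.35 in liver F1, against 13.49, 13.35, 13.60 and 13.96 in liver CT. In eWAT it had 7.05, 8.45, 7.19 and 10.25 in F1, against 5.76, 5.51, 6.33 and 6.35 in CT. The groups were apart in both tissues, and the average rise was 2.67 ± 0.35 (adjusted p = 0.00259). The eWAT values were highest in F1 4 and F1 2, the samples with the highest hepatocyte markers. By the estimate described below, liver RNA could make up 100% of the Fgl1 value in all 4 eWAT F1 samples and in CT 3 and CT 4, and 9.77% and 6.86% in CT 1 and CT 2.

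Selenbp2, a selenium-binding protein with the near copy Selenbp1, had 15.72, 15.82, 15.82 and 15.75 in liver F1, against 14.47, 13.00, 12.44 and 13.44 in liver CT. In fat the values were 6.32, 6.97, 6.25 and 7.49 in F1, against 5.73, 5.68, 6.22 and 5.96 in CT, barely apart at F1 3 and CT 3. It rose by 1.65 ± 0.24 on average (adjusted p = 0.00610). C6, a component of the membrane attack complex of complement, was bright in both tissues, with 18.08, 18.12, 17.57 and 18.22 in liver F1, against 17.19, 16.45, 16.76 and 16.72 in liver CT. The eWAT samples had 13.88, 15.17, 13.95 and 14.42 in F1, against 13.56, 13.17, 13.19 and 13.07 in CT. C6 rose by 1.16 ± 0.18 (adjusted p = 0.00924), with similar differences of 1.22 in liver and 1.11 in eWAT and no overlap in either. The complement gene C8b, the pentraxin Apcs and the hydrolase Nudt7 had higher F1 means in both tissues without passing (adjusted p = 0.0856, 0.0968 and 0.0996), and Hyi had lower ones (adjusted p = 0.0573).

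**Figure D3:**
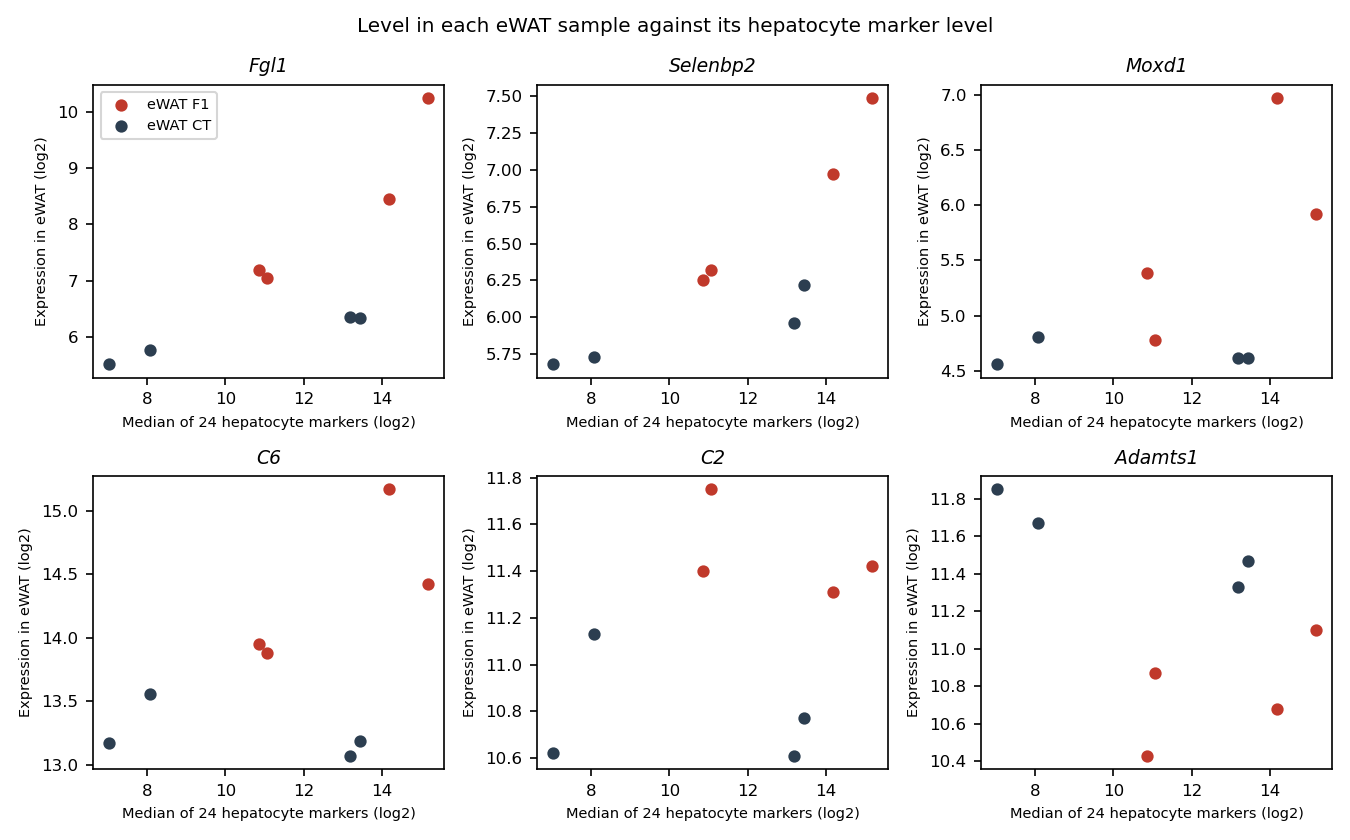
Log2 expression of 6 genes in each of the 8 eWAT samples (y axis) against the median of 24 hepatocyte markers in the same sample (x axis), with F1 in red and CT in dark. Fgl1 and Selenbp2 are highest in the samples with the most hepatocyte signal. Every F1 sample lies above every CT sample for C2 and below every CT sample for Adamts1. The medians run from 10.86 to 15.17 in F1 and from 7.04 to 13.44 in CT, so the groups share only part of the axis.

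How much of an eWAT value liver RNA could make up was estimated from the same markers. For each eWAT sample the median gap between its hepatocyte markers and those of the livers of the same father group was taken as the dilution of liver RNA. The estimate is rough, since the tissues appear to have been normalised separately, and tends to run high, since the markers were at the top of the scale in liver. Shares were capped at 100%, so a share of 100% means that the estimate reached or exceeded the measured value. The median share over the 8 samples was 100% for Fgl1 and for Selenbp2, 49.2% for Moxd1 and 9.68% for C6, with a maximum of 43.9% for C6 in F1 4. For Moxd1 the groups lay far apart, with 0.0675% to 3.11% in eWAT CT and 95.3% to 100% in eWAT F1. The median share was 1.38% for Ncam2, 0.202% for C2, 0.251% for Nr1d1, 0.0855% for Gvin1, 0.0816% for Adamts1 and 0.233% for Commd7. Among the called genes that were not liver-enriched and had an unadjusted p under 0.05 in each tissue, the highest share in any sample other than for Moxd1 was 8.06%, for Ncam2 in F1 4.

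With the hepatocyte markers as a covariate in eWAT, all 17 genes kept the sign of their eWAT difference, 12 stayed called on average and 12 had an unadjusted p under 0.05 in each tissue. The eWAT difference was then 0.75 for C2 (unadjusted p = 0.00418), 1.04 for C6 (unadjusted p = 0.00924) and 0.61 for Gvin1 (unadjusted p = 0.0221). The covariate adjusts for the amount of liver RNA and not for a difference between F1 and CT in what that RNA holds, so a gene that differs in liver can keep a difference carried by liver RNA. This applies to Fgl1, which had a liver difference of 3.10 and kept 1.64 in eWAT (unadjusted p = 0.0103). It applies as well to Moxd1, which had a larger liver difference of 8.06 and kept 0.93 in eWAT (unadjusted p = 0.0534). For Mt2 the eWAT difference was then 0.44 (unadjusted p = 0.133). Without eWAT CT 1 and CT 2, all 17 again kept their eWAT sign, and 9 had an unadjusted p under 0.05 in each tissue. Of the 17, 4 stayed called on average: Moxd1, Mt2, Fgl1 and C6. Of these, C6 had an unadjusted p under 0.05 in eWAT (0.0124), while Moxd1, Mt2 and Fgl1 had 0.0716, 0.117 and 0.0580 there.

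The called genes outside these 17 took their average mostly from a single tissue, and so did Moxd1 and Mt2 among the 17. Others of the 17 were uneven too, such as Gvin1 with the larger difference in liver and Ncam2 in eWAT. Scara5, a receptor for ferritin, had 9.59, 9.17, 9.81 and 9.55 in liver F1, against 5.52, 5.86, 5.77 and 6.34 in liver CT, and overlapped in eWAT, with means of 12.23 ± 0.39 in F1 and 11.66 ± 0.66 in CT (SD, n = 4 each). Its tissue difference was called (3.09, adjusted p = 0.00353). Btg2, an antiproliferative gene, differed by 1.59 in liver and -0.02 in eWAT (tissue difference 1.61, adjusted p = 0.0228). Tcim, a small transcriptional regulator, differed by -2.13 in liver and 0.19 in eWAT (tissue difference -2.33, adjusted p = 0.00478). In all, 5 of the 30 called genes had a called tissue difference, against 10 of 13335 kept genes (0.0750%). A large difference in a single tissue moves both the average and the tissue difference, so these counts are a description. At an unadjusted p under 0.05 the tissue difference took in 9.95% of kept genes.

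Among the rest were genes of cytokine signalling. The interleukin-1 receptor Il1r1 rose by 1.15 ± 0.16 on average (adjusted p = 0.00376), with 1.96 in liver and 0.35 in eWAT. The kinase Pim1 rose by 1.07 ± 0.17 (adjusted p = 0.00924), with 1.92 in liver and 0.23 in eWAT. Irf1, a transcription factor of the interferon response, rose by 0.64 ± 0.10 (adjusted p = 0.0117), with 1.18 in liver and 0.10 in eWAT. Nnmt, which methylates nicotinamide, rose by 1.01 ± 0.16 (adjusted p = 0.00924) and Selenbp1 by 0.66 ± 0.12 (adjusted p = 0.0191). The glucocorticoid-induced kinase Sgk1 fell by 1.01 (SE 0.14, adjusted p = 0.00376), with -1.63 in liver and -0.40 in eWAT, and the oxygen sensor Egln3 fell by 0.89 (adjusted p = 0.0360), with -1.80 in liver and 0.02 in eWAT, and kept its call in 5 of 16 fits without a sample.

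Fam107a and Cdc42ep3 had the reverse pattern, with the larger difference in fat. Fam107a, an actin-associated protein that glucocorticoids induce, had 11.36, 11.38, 10.80 and 10.43 in eWAT F1, against 7.93, 8.64, 9.72 and 9.09 in eWAT CT. It averaged 5.05 ± 0.43 in liver F1 and 4.79 ± 0.37 in liver CT (SD, n = 4 each), and its rise of 1.20 ± 0.24 (adjusted p = 0.0480) kept its call in 4 of 16 fits without a sample. Cdc42ep3, an effector of the small GTPase Cdc42, had 8.91, 8.62, 8.42 and 8.26 in eWAT F1, against 9.40, 9.92, 9.97 and 9.66 in eWAT CT, and fell by 0.72 on average (SE 0.13, adjusted p = 0.0272), a call kept in 7 of 16 fits without a sample.

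Gene lists were compared by how many kept members had an unadjusted p under 0.05 on average and how many had the same sign in both tissues. Over all kept genes these shares were 10.7% (5.61% higher in F1 and 5.08% lower) and 50.6%, with a median difference of 0.00. Of the 13335 kept genes, 6580 were higher on average, 3366 higher in both tissues, 3386 lower in both and 6583 opposite. The 17 kept genes of the core clock had shares of 47.1% and 76.5%, and the 11 genes of clock output 54.5% and 63.6%. In each list the members share samples and are not independent of each other, so the shares are descriptions. Of 52 lists, 12 are described here and 7 more among the other observations, all picked after the counts were seen.

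**Figure D4:**
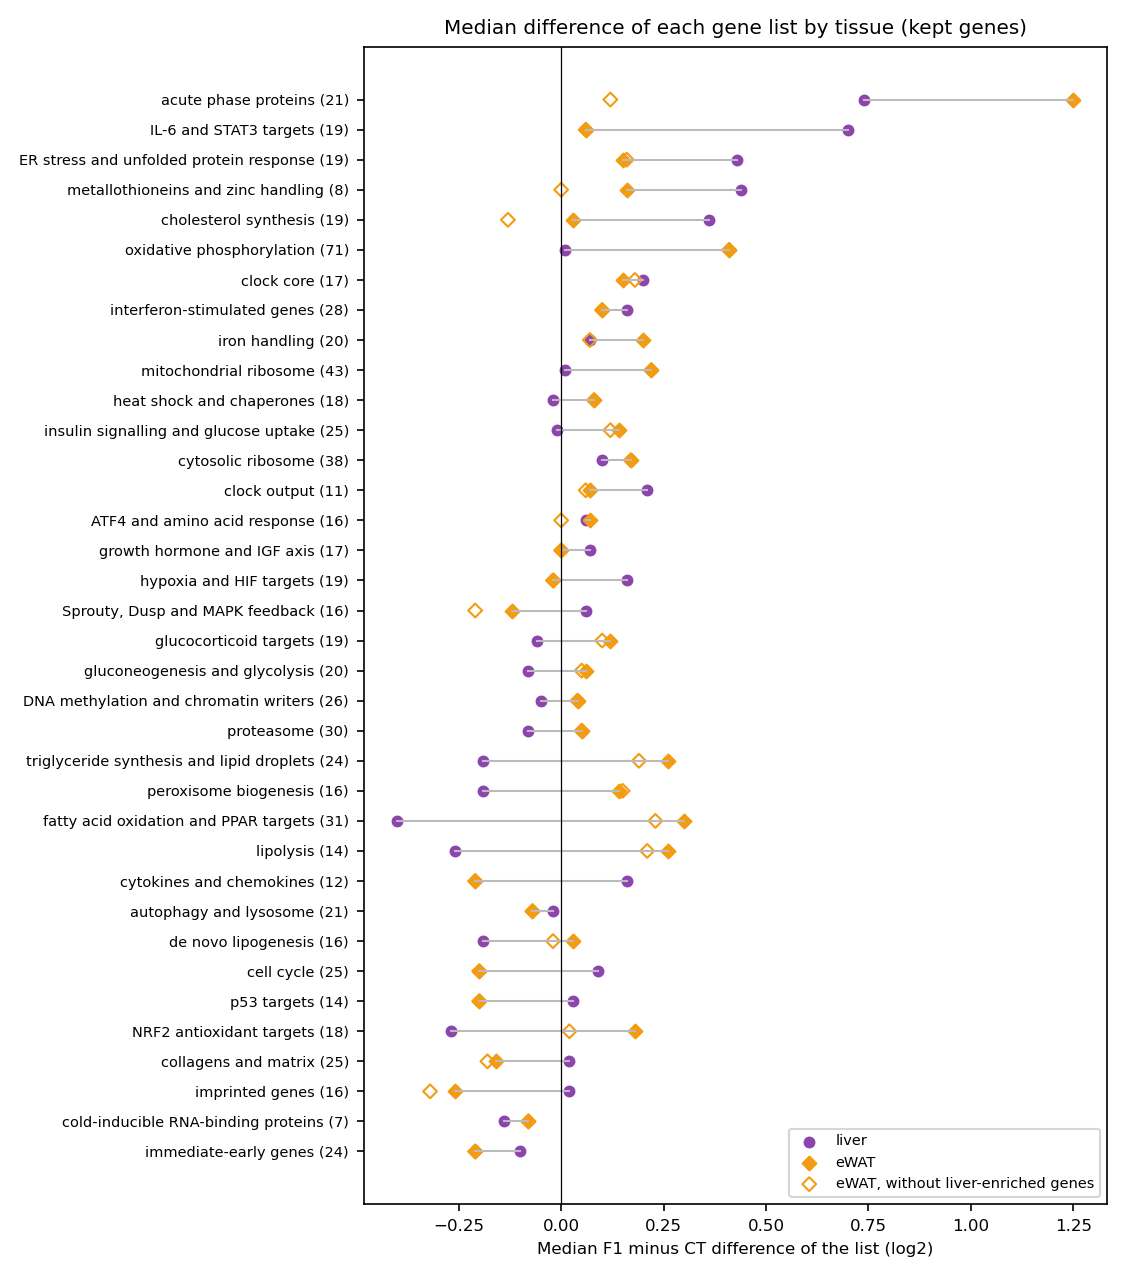
Median F1 minus CT difference (x axis, log2) of the kept genes of each gene list in liver (purple circles) and eWAT (orange diamonds), ordered by the median average difference, with the number of kept genes in brackets. Open diamonds leave out liver-enriched genes: for acute phase proteins the eWAT median is then 0.12 in place of 1.25, and the lists of fatty acid oxidation and lipolysis lie left of 0 in liver and right of 0 in eWAT.

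In the core clock, 6 genes had an unadjusted p under 0.05 on the higher side and 2 on the lower side, of which only Nr1d1 was called. Dbp, a clock output transcription factor, had 8.83, 9.04, 12.39 and 11.87 in liver F1, against 6.22, 8.44, 7.82 and 8.38 in liver CT. In eWAT it had 11.46, 10.79, 12.52 and 10.34 in F1, against 9.16, 10, 9.87 and 10.80 in CT. Liver F1 3 and 4 and eWAT F1 3 were the highest of their tissues, and the average of 2.07 ± 0.52 did not pass (adjusted p = 0.161).

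Ciart, a repressor of the clock, had 4.05, 5.76, 9.47 and 7.32 in liver F1, against 4.36 to 4.73 in liver CT, so its liver average rested on F1 3 and F1 4 (average over both tissues 1.38 ± 0.53, adjusted p = 0.360). Per3, a period gene, differed by 1.72 in liver and 0.01 in eWAT, and Nr1d2, which encodes REV-ERB beta, by 0.50 and 0.65 (adjusted p on average = 0.285 and 0.371). Arntl, which encodes BMAL1 and was singled out after its values were seen, differed by -1.11 in liver and -0.94 in eWAT (average -1.03 ± 0.42, adjusted p = 0.391).

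Promoters of 3 clock genes are shown for the elements through which the clock acts, the E-box CACGTG, bound by BMAL1 and CLOCK, and the D-box TTATGTAA or TTACGTAA, bound by DBP and its relatives. Capitals mark only the E-boxes of Ciart and the D-boxes of Per3, both shown because they held matches, and Nr1d1, the called clock gene, held neither in its window. The windows, on the minus strand, are chr3:95882229-95882478 for Ciart with 3 E-boxes, chr4:151044666-151044915 for Per3 with 2 D-boxes, and chr11:98775378-98775627 for Nr1d1 (RefSeq, GRCm38.p6, 250 bases before the start).
Ciart: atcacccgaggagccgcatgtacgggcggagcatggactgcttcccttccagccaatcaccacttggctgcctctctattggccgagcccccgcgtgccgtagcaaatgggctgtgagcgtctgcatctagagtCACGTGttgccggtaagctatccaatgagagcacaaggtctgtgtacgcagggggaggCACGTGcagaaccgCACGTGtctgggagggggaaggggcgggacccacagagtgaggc
Per3: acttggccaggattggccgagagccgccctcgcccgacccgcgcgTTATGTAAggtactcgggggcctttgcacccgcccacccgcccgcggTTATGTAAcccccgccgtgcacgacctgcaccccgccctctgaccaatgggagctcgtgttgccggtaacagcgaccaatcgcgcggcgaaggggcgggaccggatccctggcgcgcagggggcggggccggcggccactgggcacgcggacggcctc
Nr1d1: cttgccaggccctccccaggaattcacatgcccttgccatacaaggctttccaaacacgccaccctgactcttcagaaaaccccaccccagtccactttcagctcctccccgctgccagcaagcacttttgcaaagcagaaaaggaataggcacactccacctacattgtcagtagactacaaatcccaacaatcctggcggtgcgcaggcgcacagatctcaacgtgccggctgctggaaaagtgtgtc
An E-box stood in 6.02% of all 32851 windows and in 12.1% of the 33 windows of called genes, and a D-box in 0.931% of all windows and in 0 of the 33.

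**Figure D5:**
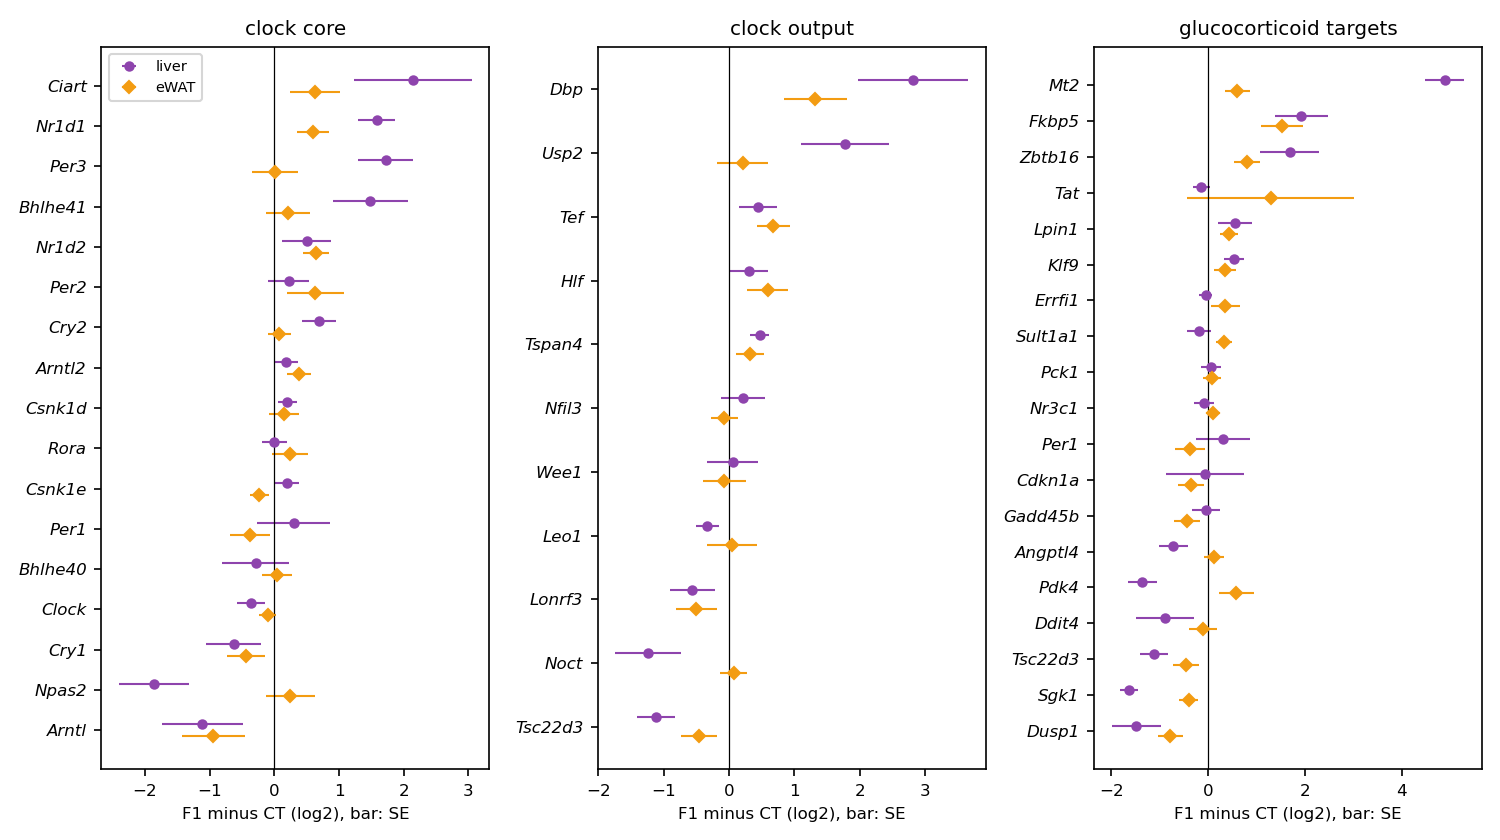
F1 minus CT difference (x axis, log2) with its SE for the kept genes of the core clock, of clock output and of glucocorticoid targets, in liver (purple circles) and eWAT (orange diamonds), ordered by their average. Dbp, Fkbp5 and Nr1d1 lie right of 0 in both tissues, and Arntl, Sgk1 and Dusp1 left of 0 in both.

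Glucocorticoid targets did not move one way. Of 19 kept genes, 6 were higher in both tissues, 6 lower in both and 7 opposite, and the called members were Mt2, which rose, and Sgk1, which fell. Fkbp5, a co-chaperone of the glucocorticoid receptor, had 13.20, 12.99, 14.27 and 12.49 in liver F1, against 9.92, 11.00, 11.68 and 12.69 in liver CT. In fat the values were 15.50, 15.90, 15.74 and 14.92 in F1, against 13.23, 13.30, 14.27 and 15.20 in CT. CT 4 reached into the F1 range in both tissues, and the average of 1.72 ± 0.37 did not pass (adjusted p = 0.0853). Tsc22d3, known as GILZ, differed by -1.12 in liver and -0.46 in eWAT (adjusted p on average = 0.187), and the phosphatase Dusp1 by -1.48 and -0.78 (adjusted p on average = 0.188).

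All 21 kept acute phase genes had a higher F1 mean on average, but 13 were liver-enriched. Their eWAT median was 1.25 with these and 0.12 without them. The hepatocyte markers of the eWAT samples had medians of 10.86 to 15.17 in F1 and 7.04 to 13.44 in CT. Fga, Fgb, Fgg and Itih3 belong to both the marker set and the list, so these are not independent. The part of liver RNA in the result was not tested. Fgl1 was the only called member of the list. Saa2, a serum amyloid with near copies, had 15.75 and 13.81 in liver F1 3 and 4, but 8.16 and 7.91 in F1 1 and 2, against 5.31 to 7.68 in liver CT (average 3.84 ± 0.98, adjusted p = 0.175). Of 19 targets of interleukin-6 and STAT3, 15 were higher on average, with a median of 0.70 in liver and 0.06 in eWAT. Pim1 alone was called, and Stat3 itself differed by 1.35 in liver and 0.00 in eWAT (adjusted p on average = 0.0701).

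Of 19 genes of the unfolded protein response, 9 had an unadjusted p under 0.05 on the higher side and none on the lower side, 12 were higher in both tissues, and 0 were called by limma. Creld2, a secretory pathway chaperone, had 10.43, 11.59, 10.08 and 12.33 in liver F1, against 8.17, 8.96, 10.23 and 9.66 in liver CT, overlapping at F1 3. The eWAT samples had 8.61, 8.71, 8.35 and 9.87 in F1, against 8.11, 7.69, 8.23 and 8.34 in CT, all F1 samples lying above CT. Its average of 1.32 ± 0.34 did not pass (adjusted p = 0.175). The highest samples were liver F1 4 and eWAT F1 4. Liver F1 4 was also the sample with pancreatic RNA. Over the alternative fits, among them those without this sample, the Creld2 average ran from 1.12 to 1.49. The part of pancreatic RNA in the result for the list was not tested. Calr, a calcium-binding chaperone, was apart in both tissues, with 0.43 in liver and 0.26 in eWAT (adjusted p on average = 0.197). Of 28 interferon-stimulated genes, 25 were higher on average and 17 in both tissues, and Irf1 was the called one. Isg15 and Mx2 averaged 0.54 and 0.57 (adjusted p = 0.299 and 0.310).

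Of 31 kept genes of fatty acid oxidation and PPAR targets, 27 had opposite signs in the tissues, with a median of -0.40 in liver and 0.30 in eWAT, or 0.23 in eWAT without 11 liver-enriched genes. None was called on average by limma, and 6 had an unadjusted p under 0.05, of which 2 were higher and 4 lower. Cyp4a14, a fatty acid hydroxylase that PPAR alpha induces, had 11.93, 10.42, 7.27 and 12.83 in liver F1, against 14.12, 16.16, 16.46 and 15.27 in liver CT, and Acaa1b, a peroxisomal thiolase, differed by -1.37 in liver and 0.14 in eWAT. Of 71 genes of oxidative phosphorylation, 68 were higher on average, with a median of 0.01 in liver and 0.41 in eWAT, and none was called by limma, 15 having an unadjusted p under 0.05, all higher. Cox6c, a subunit of cytochrome oxidase, had 15.08, 14.69, 14.52 and 14.20 in eWAT F1, against 14.02, 13.69, 13.75 and 13.99 in eWAT CT, and differed by -0.07 in liver (adjusted p on average = 0.306).

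Of 19 genes of cholesterol synthesis, 16 were higher on average, 5 of them at an unadjusted p under 0.05, with a median of 0.36 in liver and 0.03 in eWAT. Of these genes 7 were liver-enriched, and without them the eWAT median was -0.13. Fdps, which makes farnesyl diphosphate, differed by 0.73 in liver and 0.36 in eWAT (adjusted p on average = 0.212). It is liver-enriched, and liver RNA could make up 12.4% to 100% of its value in eWAT F1 samples and 0.57% to 48.1% in eWAT CT samples. Of 24 immediate-early genes, 8 were higher on average, 5 in both tissues, and 8 were lower in both. Btg2 was the called one, and Nr4a2, an orphan nuclear receptor, averaged -0.77 ± 0.24 (adjusted p = 0.232).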

How the data were processed

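RNA of liver and eWAT was measured on Affymetrix arrays in 16 samples, 4 per group. The deposited values are log2 expression, which the authors made with RMA; the submitters' processing notes name Transcriptome Analysis Console 4.0. Library medians of 5.21 to 5.24 in liver and 6.34 to 6.56 in eWAT differ as separate normalisation of the tissues would leave them, so levels were set across tissues only roughly. Arrays have no read depth; their number limits precision. Of 22206 probe sets, 19572 had 1 symbol in the platform annotation, 0 several and 2634 none; a RefSeq gene table (GRCm38.p6) changed 0. For 55 symbols with several probe sets the brightest was kept, leaving 19505 symbols. The highest share of equal values between samples of a group was 1.43%, so none appeared to be a copy.

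In R 4.3.3, limma 3.58.1 (lmFit, eBayes) was fitted on 4 group means over 16 samples, the average effect being the mean of the liver and eWAT differences, and on 8 samples per tissue. The test in both tissues took the larger single-tissue p where signs matched. Adjusted p-values (Benjamini-Hochberg) run over 13335 genes whose mean reached the 25th percentile in each tissue; called means under 0.05. The fits were also run on simulated data with independent noise for each gene. Those data held no varying liver RNA and no pairs, so that run does not bear on either. Same-numbered samples were not treated as pairs: the correlation of deviations was 0.01 to 0.05 between liver and eWAT of a number and father group, and -0.35 to 0.26 between F1 and CT of a number and tissue.

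Named genes were the called genes with the same sign and an unadjusted p under 0.05 in each tissue, filled up to 12 per direction with genes not called, then liver-enriched genes, genes carried by a single tissue, other called genes, and up to 4 members of each described list by smallest p. Gene models known by number, microRNAs, small nucleolar RNAs, pseudogenes and olfactory or vomeronasal receptors were passed over. Of 1152 entries in 52 lists, 1044 matched the array. Members and lists were chosen with earlier results of these data known, and the 12 lists described in the results and 7 in the closing section after the counts of all 52 had been seen. The share of liver RNA, the promoter patterns and the fits without eWAT CT 1 and CT 2, or without liver F1 4 and eWAT F1 1, were also chosen after seeing the data. Promoters of 7 called genes were not analysed here.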

Additional observations from a re-analysis of the deposited data

Results flagged for a closer look

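In 18 of 316 gene groups of 4 samples, a single sample stood far from the others by Dixon's criterion. This criterion is the gap to the nearest sample over the range of the group. Its threshold is set so that chance marks about 1 in 20 groups, and 18 of 316 is near that rate. The 18 values are therefore listed as a description. Among the called genes these were Mt2 in eWAT F1 4 (15.26, the others 14.37 to 14.49), C2 in liver CT 4 (8.94, the others 8.86 to 8.87), Commd7 in liver F1 2 (9.87, the others 9.24 to 9.34), Wnk2 in liver F1 2 (4.49), Tcim in liver F1 3 (9.15), Sgk1 in eWAT CT 4 (12.51) and Selenbp1 in eWAT CT 1 (10.86). Among genes not called they were Txlng in liver CT 4 (9.89), Lcn2 in eWAT F1 3 (8.48), Per3 in eWAT F1 4 (9.61), Nr1d2 in liver F1 3 (13.31), Tsc22d3 in liver CT 1 (12.13), Dnajb11 in eWAT CT 1 (9.12), Isg15 in liver F1 2 (6.31), Stat2 in liver CT 4 (11.69), Atp5e in liver F1 2 (10.44), and Etfdh in liver F1 2 (14.89) and in eWAT CT 1 (13.19).

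For 5 of the called genes the F1 effect differed between the tissues by the test of the difference itself (limma, adjusted over all kept genes). The liver difference exceeded the eWAT difference by 6.95 for Moxd1, 4.28 for Mt2, 3.09 for Scara5 and 1.61 for Btg2, and the tissue difference was -2.33 for Tcim.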

How the results depend on the processing

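The 0 calls of the test in both tissues stayed 0 under every alternative run, and no named gene changed the sign of its average difference under any. Of 920 values of called genes under alternatives, 677 stayed on their side of the threshold and 243 lost the call; 17 of the 30 called genes kept it in all 16 fits without a sample. The number of genes called on average, 30, became 48 with trend and robust moderation, 2 in the additive model and 11 without eWAT CT 1 and CT 2, and ranged from 20 to 46 by leaving out a sample, with 20 without liver F1 3 or without eWAT F1 2, and 46 without eWAT F1 3. For liver, 21 calls became 11 with quantile normalisation over 16 samples, 75 with trend and robust moderation, and 6 to 22 by leaving out a sample, with 7, 9 and 8 without liver CT 2, 3 and 4, and 9 and 6 without liver F1 2 and 3. For eWAT the range was 0 to 1, the 1 being without eWAT F1 4. The 10 called tissue differences became 19 at the 50th percentile filter, 35 with trend and robust moderation, 21 without liver-enriched genes, 5 without eWAT CT 1 and CT 2, and 7 to 23 by leaving out a sample, with 19 without liver F1 4 and 23 without eWAT F1 3. The 91 genes with an unadjusted p under 0.05 in each tissue became 60 without eWAT CT 1 and CT 2, and 71 to 94 by leaving out a sample. With the replicate number as a block, 23 genes were called on average, 3 in liver and 8 for the tissue difference. A random block took same-numbered liver and eWAT samples as 1 animal, which the labels do not say (correlation 0.03). It gave 27 calls on average. Across tissues, 6 of 8 samples correlated best with their own number, a hint from the data and not from the design. A separate spread per tissue gave 41 calls on average. Without liver F1 4 and eWAT F1 1, the call on average was lost by Ncam2, Nr1d1, Atp11a, Lrg1, Commd7, Adamts1, Wnk2, Fam83a and Atoh8. It was also lost there by Tcim, Egln3 and Fam107a. With hepatocyte and epididymis markers as covariates in eWAT, the same genes except Atoh8 lost it, as did C2 and Mt1. Of 372 list medians under alternatives 371 moved by less than the spread; that of interleukin-6 and STAT3 targets was 0.20 without liver CT 1, in place of 0.36. Unless fewer samples or genes made it, the cause of these changes was not tested. Leaving out every eWAT sample with raised hepatocyte markers was not run, because no F1 sample would remain. Genes near the top of the scale in liver have compressed differences.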

Other observations

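Of 21 kept macrophage markers, 5 had a higher F1 mean on average, 1 had an unadjusted p under 0.05 on the higher side and 3 on the lower side, with a median of 0.09 in liver and -0.40 in eWAT. Of 25 kept cell cycle genes, 6 were higher on average and 16 had opposite signs, with a median of 0.09 in liver and -0.20 in eWAT. Of 16 kept imprinted genes, whose expression depends on the parent of origin, 4 were higher on average, 9 had opposite signs and 1 had an unadjusted p under 0.05, so 6.25% against 10.7% of all kept genes. Of 26 kept genes that write or read DNA methylation and chromatin marks, 18 had opposite signs and 0 were called; 1 had an unadjusted p under 0.05 (limma).

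The ribosomal lists had small differences on the F1 side: 34 of 38 kept genes of the cytosolic ribosome were higher on average, with a median of 0.10 in liver and 0.17 in eWAT, and 31 of 43 of the mitochondrial ribosome, with 0.01 and 0.22. Of 16 kept genes of peroxisome biogenesis, 13 had opposite signs, with a median of -0.19 in liver and 0.14 in eWAT.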
